A study of Mus musculus with 14 samples.

Results

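The complement genes described here were chosen by gene symbol: C1qa, C1qb, C1qc, C2, C3, C4b, Cfb, C3ar1 and C5ar1, which make 9 of the 23282 genes in the deposited count table. All 9 were on the table and all 9 passed the filter on low counts in each comparison. The data are QuantSeq 3′-mRNA libraries of bulk epididymal white adipose tissue (eWAT) from male, wild-type C57BL/6J mice. Mice entered the study at 4 weeks of age and received the normal diet (control) or the Western diet (WD) for 20 weeks. The labels place 4 control and 5 WD libraries in batch 1 and 5 further control libraries in batch 2, and do not say what a batch marks. No WD library belongs to batch 2, so diet and batch cannot be told apart when the WD libraries are compared with the batch 2 controls. C1qa, C1qb, C1qc, C3, C3ar1 and C5ar1 also stand in a gene list that the study drew up from these libraries, so the direction of these genes is not independent evidence.

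Complement is a cascade of plasma and tissue proteins that tags particles and dying cells for uptake by phagocytes. The classical pathway starts when C1q binds a target and the proteases C1r and C1s, which it carries, are activated to cleave C4 and C2, the alternative pathway is amplified through factor B and factor D, and both meet at C3, whose cleavage product C3a is read by the receptor C3aR. Most complement proteins of plasma are made by the liver, whereas C1q is made mainly by macrophages, and adipocytes are a known source of factor D.

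The 3 C1q genes lie side by side on the minus strand of chromosome 4 (mm10), within 18700 bases: C1qb at chr4:136880145-136886177, C1qc at chr4:136889802-136892914 and C1qa at chr4:136895916-136898844. C4b, Cfb and C2 lie on the minus strand of chromosome 17, in the class III part of the major histocompatibility complex, with 87 bases between Cfb and C2. C3 lies at chr17:57203967-57228136, C3ar1 at chr6:122847140-122856157 and C5ar1 at chr7:16246743-16259540, all on the minus strand. Upstream sequences from RefSeq (GRCm38.p6) matched 5 of the 9 genes, and those of C1qa, C2, C4b and Cfb were not matched. The stretches of C1qb, C1qc and C3ar1 are printed because these genes passed the test against the batch 2 controls and each held one of 4 searched motifs, shown in capitals. They are written 5′ to 3′ on the minus strand, cover chr4:136886201-136886450, chr4:136893066-136893164 and chr6:122856162-122856407, and leave out bases inside the annotated gene.
C1qb: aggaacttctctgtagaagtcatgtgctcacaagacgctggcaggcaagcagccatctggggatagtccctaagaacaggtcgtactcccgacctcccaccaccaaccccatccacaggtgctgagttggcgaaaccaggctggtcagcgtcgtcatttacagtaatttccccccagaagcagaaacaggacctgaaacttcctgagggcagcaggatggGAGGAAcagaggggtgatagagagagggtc
C1qc: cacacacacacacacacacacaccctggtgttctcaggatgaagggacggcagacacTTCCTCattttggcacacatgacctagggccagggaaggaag
C3ar1: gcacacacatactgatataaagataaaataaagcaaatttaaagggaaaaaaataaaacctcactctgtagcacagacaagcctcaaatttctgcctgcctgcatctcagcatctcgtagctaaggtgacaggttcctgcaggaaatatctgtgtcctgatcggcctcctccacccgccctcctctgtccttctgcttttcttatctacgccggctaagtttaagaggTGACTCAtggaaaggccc

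The PU.1 core GAGGAA, on either strand, stood 30 bases before the start of C1qb and 193 bases before that of C1qc. Distances are counted from the RefSeq start. For C1qc and C3ar1 that start lies inside the annotated gene, so their printed stretches end before reaching it. PU.1 is a transcription factor of myeloid cells, and this motif occurs in 23.3% of 32851 RefSeq promoters. C3ar1 held an AP-1 motif, TGANTCA, 22 bases before its start, a motif found in 6.75% of promoters. The interferon response motif, a pair of GAAA blocks spaced by 2 bases (2.98% of promoters), and the STAT motif TTCNNNGAA (7.02%) were not found for any of the 5 genes, and C3 and C5ar1 held none of the 4. The search covered both strands of the 250 bases before each start, of which the printed stretches leave out those inside a gene, and the shares are over windows of the same length. No match overlapped another, and a match describes letters, not binding.

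Total counts were 10278970 to 13712254 per library, and a floor of 3 counts equalled 0.213 to 0.319 CPM. Batch 1 control replicate 1 held 41300 CPM of 8 epididymis markers, against at most 22.1 CPM in any other library, and only 4570 CPM of 7 adipocyte markers. Batch 1 control replicate 4 had the fewest detected genes, 7999. The defining adipocyte markers were present, with sums of 21800 to 35700 CPM in the WD libraries and 38200 to 47400 CPM in the batch 2 controls. In the batch 1 controls these sums were 4570 to 39000 CPM. Sums of 8 macrophage markers were 1120 to 1720 CPM in the WD group, 163 to 1270 CPM in the batch 1 controls and 300 to 633 CPM in the batch 2 controls. In bulk tissue, fewer cells of a type and less RNA per cell cannot be told apart.

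The C1q genes, which encode the 3 chains of the recognition molecule of the classical pathway, had their highest mean levels in the WD group. C1qa had 6254, 6674, 3580, 3825 and 3640 counts in WD replicates 1 to 5, 869, 2457, 1311 and 2527 counts in the batch 1 controls, and 1524, 1041, 856, 1697 and 1170 counts in the batch 2 controls. Every WD library lay above every control of either batch. In CPM after TMM normalization this was 406 ± 184 (SD, n = 5) in WD, 150 ± 58.0 (SD, n = 4) in the batch 1 controls and 105 ± 24.7 (SD, n = 5) in the batch 2 controls. WD replicate 2 was the highest of all libraries at 711 CPM.

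C1qb had 8052, 7533, 5293, 5102 and 4122 counts in the WD libraries, 1248, 2259, 2063 and 3496 in the batch 1 controls and 1746, 1128, 966, 2382 and 1177 in the batch 2 controls. Here too no WD library overlapped a control. The means were 503 ± 188 CPM in WD, 190 ± 55.1 CPM in the batch 1 controls and 122 ± 39.5 CPM in the batch 2 controls. Of the 3 C1q genes, only for C1qb did the gap between the control batches (0.65 on the log2 scale) exceed the larger SD of the groups (0.47).

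C1qc had 3935, 1055, 3241, 2573 and 2119 counts in WD, 384, 1755, 921 and 1768 in the batch 1 controls and 812, 481, 576, 1322 and 379 in the batch 2 controls. WD replicate 2, the highest library for C1qa and C1qb in CPM, was the lowest WD library for C1qc and lay below 2 batch 1 controls. The means were 203 ± 63.0, 99.9 ± 50.2 and 57.6 ± 25.6 CPM in WD, batch 1 controls and batch 2 controls. In WD replicate 2 the C1qc count was 0.14 of the C1qb count, whereas this ratio was 0.489 to 0.612 in the other WD libraries. The ratio of C1qa to C1qb counts stayed within 0.635 to 1.09 over all 14 libraries, with medians of 0.777 in WD, 0.71 in the batch 1 controls and 0.886 in the batch 2 controls.

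**Figure D1:**
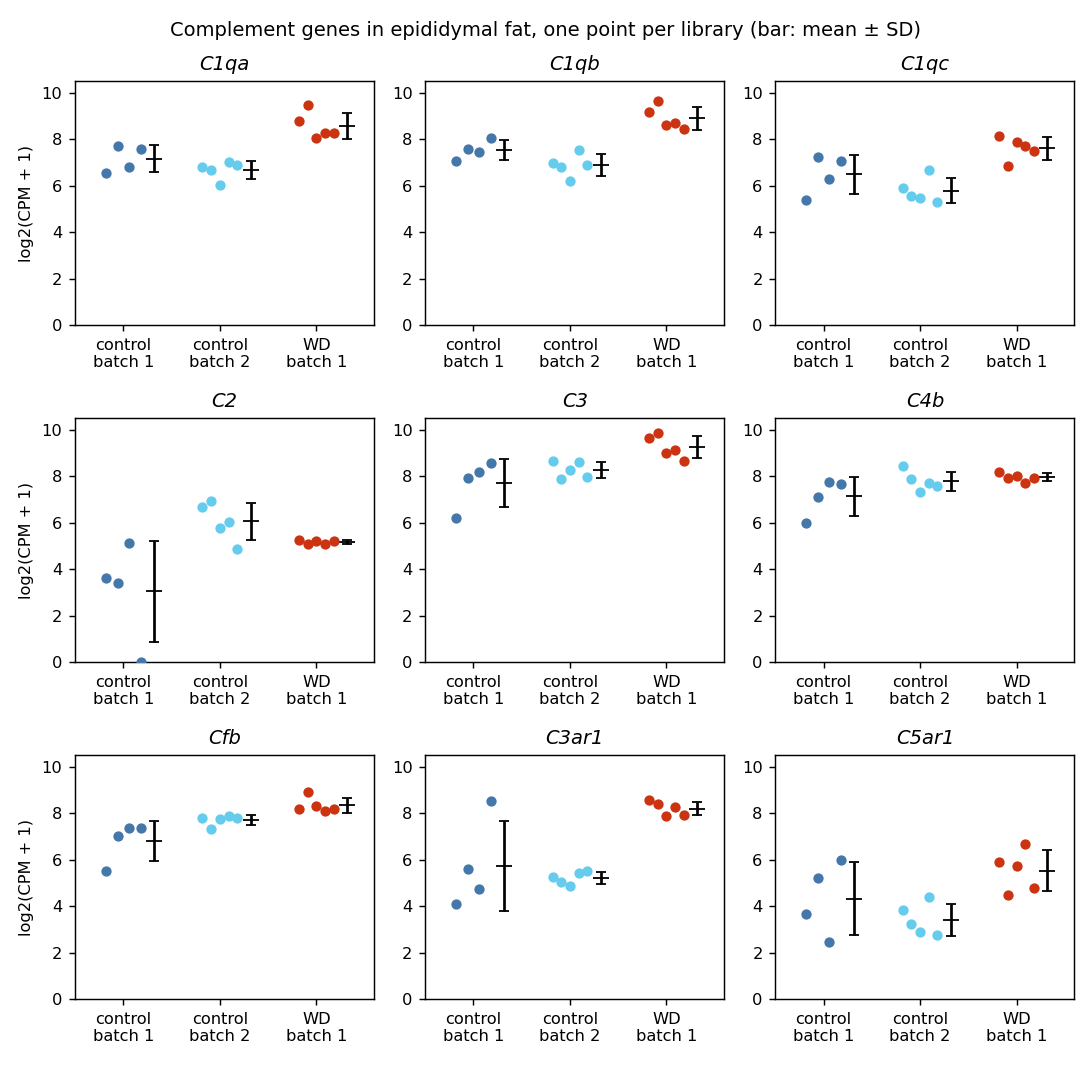
Each panel plots 1 gene and each point 1 library, with log2(CPM + 1) on the vertical axis and the 3 groups on the horizontal axis; bars are the mean ± SD (n = 4, 5 and 5). For C1qa and C1qb all WD points lie above all control points, C2 is at 0 in batch 1 control replicate 4, and C3ar1 in that library lies among the WD points.

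C2 and C4b encode the proteins that C1 cleaves to build the C3 convertase of the classical pathway. C2 had 522, 311, 495, 416 and 439 counts in WD, 107, 115, 411 and 0 in the batch 1 controls and 1408, 1250, 715, 847 and 277 in the batch 2 controls. The WD libraries lay close together (35.3 ± 1.86 CPM), between the means of the batch 1 controls (13.8 ± 14.5 CPM) and the batch 2 controls (73.8 ± 37.1 CPM). The library with 0 counts of C2, control replicate 4, is the one with the fewest detected genes, and the part of that in the C2 value was not tested.

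C4b had 4057, 2269, 3542, 2575 and 2921 counts in WD, 581, 1615, 2607 and 2698 in the batch 1 controls and 4781, 2430, 2128, 2702 and 1879 in the batch 2 controls. The groups overlapped, and no step in the order of their means (155 ± 71.3, 227 ± 69.6 and 248 ± 29.2 CPM in batch 1 controls, batch 2 controls and WD) exceeded the spread. C4b has a near-identical neighbour, C4a (chr17:34809092-34823454), and 113 of 426 windows of 75 bases (26.5%) in the last 500 bases of its transcript also occur in C4a. Since the authors counted multiple alignments, reads may be counted at both genes. C4a counts were 0.0289 to 0.242 of the C4b counts, and the lowest ratio was that of control replicate 4.

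C3, the protein on which all pathways meet, had 11315, 8680, 6960, 6918 and 4861 counts in WD, 695, 2820, 3431 and 4973 in the batch 1 controls and 5635, 2466, 4041, 5035 and 2501 in the batch 2 controls. In CPM the lowest WD library (406) was just above the highest control (403), so the groups were separate by a narrow margin. The mean was 640 ± 215 CPM in WD, 317 ± 75.3 CPM in the batch 2 controls and 244 ± 126 CPM in the batch 1 controls. The controls of the batches lay within their spread of each other.

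Cfb, which encodes factor B of the alternative pathway, had 4093, 4541, 4402, 3372 and 3494 counts in WD, 428, 1533, 1972 and 2155 in the batch 1 controls and 3144, 1657, 2859, 3102 and 2215 in the batch 2 controls. WD libraries lay at 332 ± 86.7 CPM, above all controls, and the batch 2 controls (213 ± 30.3 CPM) lay above the batch 1 controls (126 ± 55.7 CPM) by slightly more than the spread. In the last 500 bases, 398 of 426 windows (93.4%) of Cfb are shared with Gm20547, an annotated protein-coding gene that spans C2 and Cfb and has no row of its own in the table. Reads of the 2 genes therefore could not be separated there.

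C3ar1 encodes the receptor for C3a, found on macrophages and other myeloid cells. It had 5317, 3143, 3234, 3895 and 2866 counts in WD, 152, 557, 314 and 4844 in the batch 1 controls and 527, 335, 375, 553 and 440 in the batch 2 controls. All WD libraries (300 ± 61.2 CPM) lay far above the batch 2 controls (37.1 ± 6.68 CPM). In batch 1, replicates 1 to 3 of the controls lay at 16.1 to 47.3 CPM, but replicate 4 reached 366 CPM, higher than 4 of the 5 WD libraries. That library also had the highest macrophage marker sum of the controls, 1270 CPM, within the WD range, and the part of this in the C3ar1 value was not tested.

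C5ar1, the receptor for C5a and a chemoattractant receptor of myeloid cells, had 826, 202, 720, 1264 and 324 counts in WD, 110, 422, 54 and 840 in the batch 1 controls and 186, 88, 84, 266 and 58 in the batch 2 controls. Its means were 52.3 ± 31.9, 28.8 ± 26.6 and 10.9 ± 6.08 CPM in that order. The WD libraries overlapped the batch 1 controls but not the batch 2 controls. Control replicate 1, the library with epididymis markers, was the lowest batch 1 control for 7 of the 9 genes in CPM.

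Within batch 1, the comparison of diets that batch does not confound, all 9 genes had a higher fitted level in WD (log2 fold change above 0 in 51.8% of the 12157 genes tested), with a median log2 fold change of 1.42 against 0.03 over all genes. None had an FDR under 0.05 in edgeR's quasi-likelihood test, and neither did any of the 12157 genes (0%). At an unadjusted p under 0.05, C1qa, C1qb, C1qc, C3 and Cfb were higher, which is 5 of 9 against 3.35% of all genes. The log2 fold change was 1.45 (SE 0.39, FDR 0.434) for C1qa, 1.42 (SE 0.34, FDR 0.434) for C1qb and 1.04 (SE 0.40, FDR 0.777) for C1qc. It was 1.42 for C3 (SE 0.44, FDR 0.546) and for Cfb (SE 0.38, FDR 0.434), 1.44 for C3ar1 (SE 0.74), 1.34 for C2 (SE 1.04), 0.88 for C5ar1 (SE 0.69) and 0.70 for C4b (SE 0.35), each of the last 4 with an FDR of 1. Single libraries moved the last 3 values, with C2 at 2.29 without control replicate 3, C5ar1 at 1.58 without control replicate 4, 0.50 without control replicate 3 and 0.51 without WD replicate 4, and C4b at 0.44 without control replicate 1, and limma-voom gave 3.50 for C2. The other values moved too with a library left out. C3ar1 ranged from 1.08 to 3.31, C1qa from 1.15 to 1.62 and C1qb from 1.18 to 1.59. C1qc ranged from 0.79 to 1.27, C3 from 1.12 to 1.67 and Cfb from 1.15 to 1.56. In edgeR the unadjusted p of C1qc was not under 0.05 without control replicate 3 or without WD replicate 1. For C1qa, C1qb, C3 and Cfb the WD libraries did not overlap the controls, 4 of 9 genes against 2.95% of all genes. Without control replicate 4, C3ar1 had a log2 fold change of 3.31 and an FDR of 0.00572. In that setting 1 of the 9 genes was called, and 48 of all 12901 genes tested. DESeq2 called 1 of the 9, C1qb (log2 fold change 1.33, FDR 0.019), and 114 genes in all.

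Against the batch 2 controls, 6 of the 9 genes had an FDR under 0.05 and were higher in WD, against 3.93% of the 12070 genes tested. C3ar1 rose the most, by a log2 fold change of 3.02 (SE 0.21, FDR 1.04e-06), and C5ar1 rose by 2.26 (SE 0.46, FDR 0.00515). The C1q genes rose together, C1qa by 1.96 (SE 0.28, FDR 0.000374), C1qb by 2.05 (SE 0.27, FDR 0.000225) and C1qc by 1.82 (SE 0.29, FDR 0.0011). C3 rose by 1.01 (SE 0.24, FDR 0.0161), a call that was lost without control replicate 6 (FDR 0.0505), control replicate 9 (FDR 0.051) or WD replicate 1 (FDR 0.0516).

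The other 3 genes did not pass the threshold in that comparison. Cfb had a log2 fold change of 0.64 (SE 0.20, FDR 0.0691), C4b of 0.13 (SE 0.21, FDR 0.859) and C2, the only member with a lower level in WD, of -1.06 (SE 0.32, FDR 0.0576). C2 passed when control replicate 9 was left out (-1.27, FDR 0.00896) with DESeq2 (-1.05, FDR 0.0263), with no filter on low counts (-1.07, FDR 0.0367) and with a filter of 1 CPM per library (-1.04, FDR 0.0379). Cfb passed with DESeq2 (0.66, FDR 0.0151) and with the filter of 1 CPM (0.66, FDR 0.0362). WD libraries did not overlap the batch 2 controls, on the higher side, for 7 of the 9 genes against 4.88% of all genes. The median log2 fold change of the 9 was 1.82, against -0.003 over all genes.

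**Figure D2:**
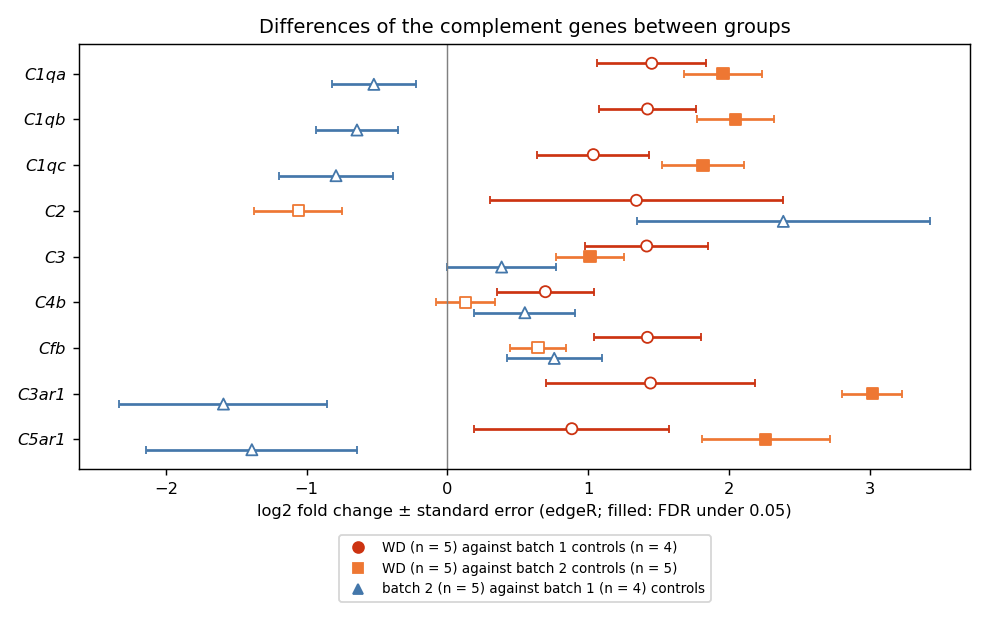
The horizontal axis gives the log2 fold change of each gene with its standard error, for WD against batch 1 controls, WD against batch 2 controls and batch 2 against batch 1 controls; filled symbols have an FDR under 0.05 in edgeR. The 6 filled symbols, from C3 at 1.01 to C3ar1 at 3.02, all belong to the comparison with the batch 2 controls, and C2 has opposite signs against the 2 control batches.

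The controls of the 2 batches ate the same diet, and their difference shows how far the level of a gene moved without a change of diet. None of the 9 genes passed an FDR of 0.05 in edgeR (0% of the 12106 genes tested, and 0 of the 9 in DESeq2, which called 111 genes). At an unadjusted p under 0.05, C2 (log2 fold change 2.39, SE 1.04) and Cfb (0.76, SE 0.34) were higher in batch 2, which is 2 of 9 against 3.85% of all genes, and C1qb (-0.64, SE 0.29) was lower, 1 of 9 against 3.54%. C3ar1 had a difference of -1.59 (SE 0.74) that turned to 0.31 without control replicate 4. The differences were -0.52 for C1qa, -0.79 for C1qc, -1.39 for C5ar1, 0.39 for C3 and 0.55 for C4b. Of these, C5ar1 moved to -0.67 without control replicate 4, C3 to 0.09 without control replicate 1 and to 0.67 without control replicate 4, C4b to 0.29 without control replicate 1 and to 0.35 without control replicate 5, and C1qa to -0.32 without control replicate 2. The Cfb value moved to 0.49 without control replicate 1, and limma-voom gave 4.39 for C2.

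With all 9 controls pooled and no batch term, 2 of the 9 genes were called, C1qa (log2 fold change 1.70, SE 0.28, FDR 0.00783) and C1qb (1.73, SE 0.28, FDR 0.00647), against 0.435% of the 12653 genes tested. C1qc (1.41, FDR 0.07), C3 (1.17, FDR 0.115), Cfb (0.93, FDR 0.243), C3ar1 (2.08, FDR 0.159), C5ar1 (1.47, FDR 0.444), C4b (0.35, FDR 0.958) and C2 (-0.42, FDR 0.999) were not. This count depended on single controls, with 5 genes called without control replicate 1, 3 without control replicate 2 and 6 without control replicate 4. Calls over all genes without these controls are not given here, so this dependence is not shown to be particular to the 9 genes. The 3 comparisons that involve WD share the same 5 WD libraries, so their results are not independent of each other.

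Most of the macrophage markers tested were higher in WD against either control batch, the same direction as the C1q genes and the receptors. Of the 7 macrophage markers tested, 6 had an FDR under 0.05 and were higher in WD against the batch 2 controls (3.93% of all genes), among them Adgre1, the gene of the F4/80 antigen (2.70, FDR 7.11e-06), and Cd68 (3.60, FDR 1.26e-05). In batch 1, 0 of 7 passed, and 4 were higher at an unadjusted p under 0.05 in edgeR (3.35% of all genes). Mertk had no count in 9 of the 14 libraries and was not tested, and Cd163 was the marker with a lower level in WD in both comparisons (-0.52 and -0.72, FDR 1 and 0.121).

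Relative to the summed CPM of the 8 macrophage markers, C1qa lay at 0.184 to 0.465 in WD, 0.15 to 0.566 in the batch 1 controls and 0.188 to 0.353 in the batch 2 controls. The ranges of C1qb also overlapped, at 0.246 to 0.524, 0.208 to 0.813 and 0.212 to 0.364. For the C1q genes, WD and control libraries were therefore mixed on this scale. C3ar1 per macrophage marker was 0.177 to 0.219 in WD and 0.067 to 0.133 in the batch 2 controls, with no overlap, while in batch 1 control replicate 4 reached 0.288 and the other controls 0.0554 to 0.099. Against the batch 2 controls C3 was lower on this scale, at 0.334 to 0.604 in WD and 0.611 to 0.889, as were Cfb (0.163 to 0.316 and 0.376 to 0.669), C4b (0.124 to 0.218 and 0.328 to 0.784) and C2 (0.020 to 0.033 and 0.084 to 0.403). The marker sums were themselves higher in WD (1120 to 1720 CPM) than in the batch 2 controls (300 to 633 CPM). A gene that rose less than these sums is therefore lower on this scale. In CPM, C3 and Cfb were higher in WD. In the batch 1 controls C3 (0.296 to 0.605), Cfb (0.128 to 0.348), C4b (0.16 to 0.46) and C2 (0 to 0.072) overlapped the WD libraries. These ratios are descriptions, and the part of cell numbers in the differences was not tested.

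**Figure D3:**
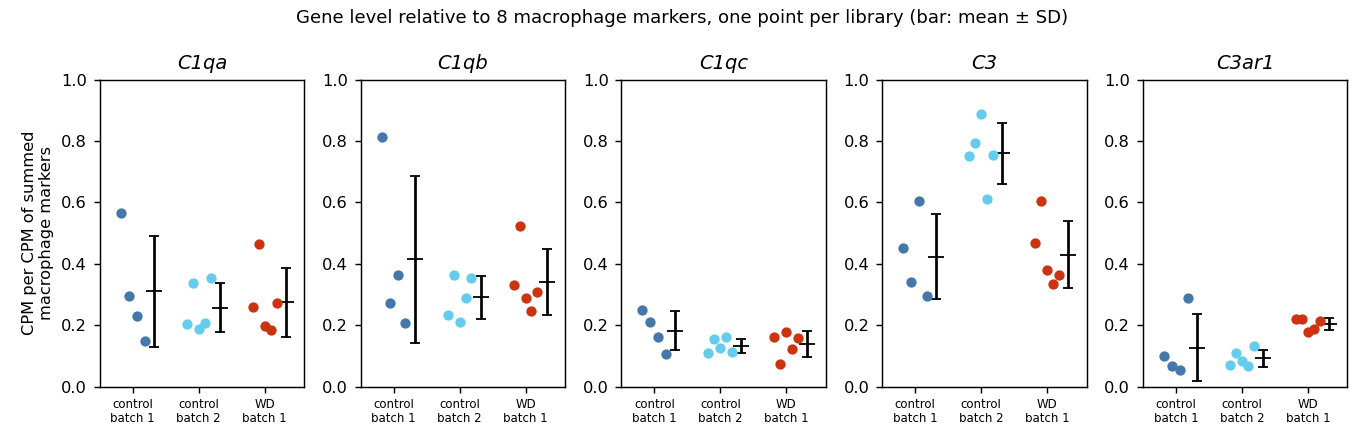
Each point is the CPM of 1 gene in 1 library divided by the summed CPM of 8 macrophage markers (vertical axis, 0 to 1), by group; bars are the mean ± SD. The C1q panels overlap between groups, the C3 points of WD (0.334 to 0.604) lie below those of the batch 2 controls (0.611 to 0.889), and the C3ar1 points of WD lie above those of the batch 2 controls.

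The rest of the pathway was described with 45 further complement genes, of which 29 passed the filter in batch 1 and 28 against the batch 2 controls. In batch 1, 17 had a higher and 12 a lower fitted level in WD, 0 had an FDR under 0.05 in edgeR (1 in DESeq2), and the median log2 fold change was 0.69 against 0.03 over all genes. Against the batch 2 controls, 5 of 28 rose and 2 fell (backgrounds of 3.93% and 2.48%), with a median of 0.39. The 5 were Serping1, the C1 inhibitor that blocks C1r and C1s, Itgax and Itgb2, which encode the chains of complement receptor 4, Cd93, once described as a C1q receptor, and C5ar2, the second C5a receptor. Serping1, C5ar2, Itgax and Itgam stand in the study's own list too, so their direction is not independent evidence either.

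Serping1 rose from 273 ± 101 CPM in the batch 2 controls to 660 ± 195 CPM in WD (log2 fold change 1.27, SE 0.27, FDR 0.00773), and lay at 332 ± 143 CPM in the batch 1 controls (1.00, SE 0.37, FDR 0.71). Itgax had 57.6 ± 13.2 CPM in WD, 10.1 ± 10.1 CPM in the batch 1 controls and 7.26 ± 6.20 CPM in the batch 2 controls, with no overlap in either comparison (2.54, FDR 0.434, and 2.98, FDR 0.00354). Itgb2 (1.95, FDR 0.006) and Cd93 (2.08, FDR 0.00339) rose against the batch 2 controls, and in batch 1 their log2 fold changes were 0.74 (SE 1.01) and 0.51 (SE 0.75), each with an FDR of 1. Itgax and Itgb2 also mark leukocytes at large. For C5ar2, 3 of the batch 2 controls had 0 counts and the other 2 had 1 and 39, against 126 to 319 counts in WD (FDR 0.0265), but control replicate 4 of batch 1 had 305. Against the batch 2 controls C5ar2 passed the filter on low counts only through the WD libraries. Its direction there was fixed by this, so its place among the genes that rose is no support.

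The 2 genes that fell against the batch 2 controls were Cfd, which encodes factor D (adipsin), the protease that cleaves factor B, and Fcna, which encodes ficolin A of the lectin pathway. Cfd lay at 1520 ± 474 CPM in WD and 12800 ± 3830 CPM in the batch 2 controls (log2 fold change -3.07, SE 0.28, FDR 9.78e-06), with no overlap. In the batch 1 controls it ranged from 801 to 8240 CPM and overlapped the WD libraries (-1.40, SE 0.63, FDR 0.95). The lowest batch 2 control (8350 CPM) was narrowly above the highest batch 1 control. The 2 control batches, on the same diet, therefore did not overlap for Cfd (log2 fold change 1.65, SE 0.72, FDR 0.64). Adipocyte marker sums were also lower in WD than in the batch 2 controls, as given above, while those of the batch 1 controls overlapped WD. Against the batch 2 controls, 4 of the 7 adipocyte markers fell at an FDR under 0.05 (2.48% of all genes). Lep rose (1.29, FDR 0.00611), 1 of 7 against 3.93%, and Fabp4 had a log2 fold change of -0.32 (FDR 0.613). The part of the adipocyte markers in the Cfd value was not tested. Fcna lay at 13.0 to 33.4 CPM in WD against 47.9 to 76.7 CPM in the batch 2 controls (-1.80, SE 0.29, FDR 0.00117), and the batch 1 controls, at 0 to 83.7 CPM, overlapped the WD libraries (-1.35, SE 1.06, FDR 1).

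In batch 1, 8 of the 29 genes tested had an unadjusted p under 0.05 in edgeR, 5 higher (3.35% of all genes) and 3 lower (1.82%). C1ra (0.88), Serping1, Itgam (0.99) and Itgax were higher in WD, and Itgam encodes a chain of complement receptor 3. Cr2, complement receptor 2, was at 0 in all 4 batch 1 controls and had 0, 12, 12, 63 and 93 counts in the WD libraries in ascending order. It therefore passed the filter on low counts only through the WD libraries. Its direction in batch 1 was fixed by this, so its place among the 5 higher genes is no support. The batch 2 controls, on the same normal diet, had 0, 11, 20, 22 and 44 counts of Cr2. Against them its log2 fold change was 0.76 (FDR 0.885). Cfd, Vsig4 and Clu were lower, and the Clu value (-3.87) rests on control replicate 1, the library with epididymis markers, which held 63668 of its counts against 348 to 1493 in the other batch 1 controls. Against the batch 2 controls Vsig4 (0.20, FDR 0.961) and Clu (0.78, FDR 0.185) were not lower.

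**Figure D4:**
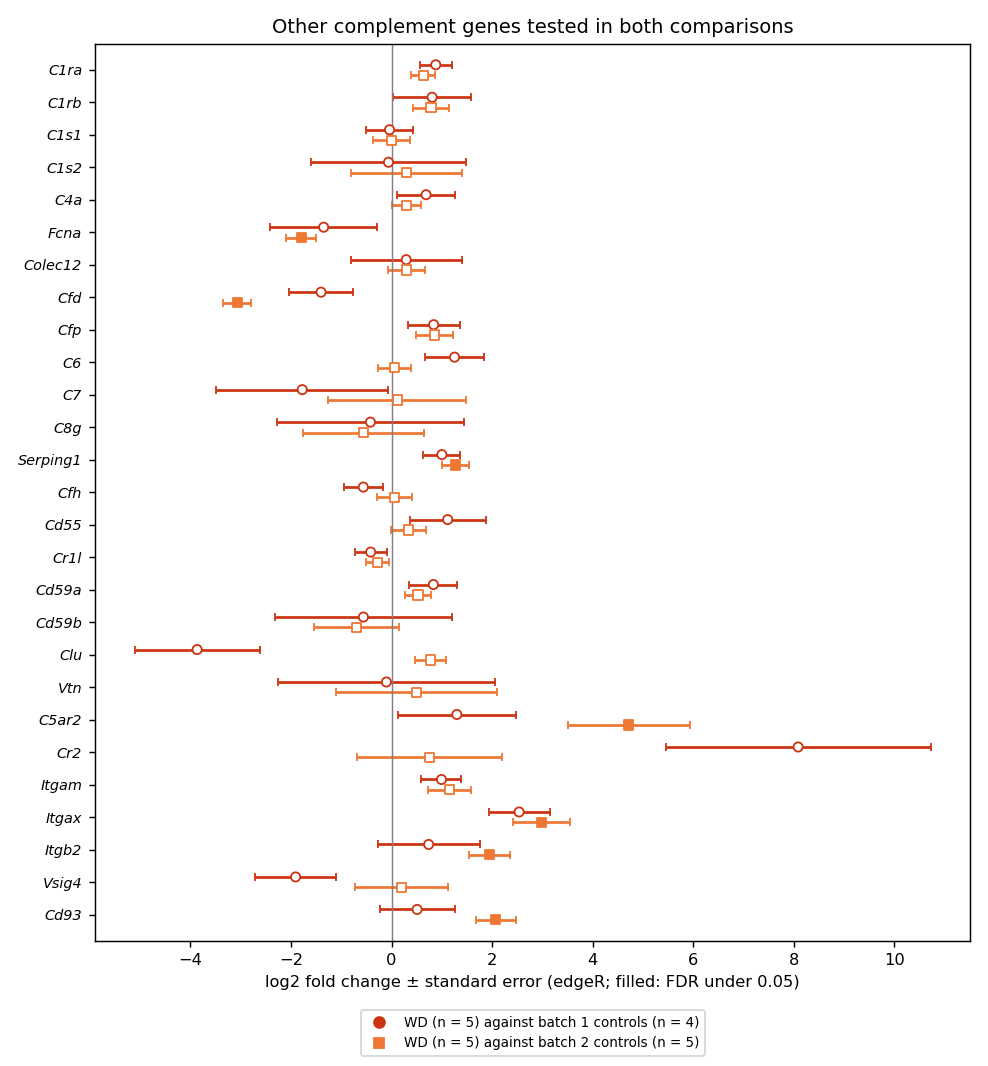
The horizontal axis gives log2 fold changes with standard errors for the 27 other complement genes tested in both comparisons, as circles for WD against batch 1 controls and squares for WD against batch 2 controls; filled symbols have an FDR under 0.05 in edgeR. The filled squares are Serping1, C5ar2, Itgax, Itgb2 and Cd93 on the right and Cfd and Fcna on the left, and no circle is filled.

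The genes whose levels followed those of the members most closely were sought over the 14 libraries after subtracting the mean of each diet and batch, so that the likeness does not use the differences between groups. Among 13150 genes, the mean of the C1q genes was most like Ccl9, a chemokine (Pearson's r = 0.94), Cfp, which encodes properdin (0.90), and Fcer1g (0.89). C3 was most like Slc16a1 (0.97), Tns1 (0.94) and Clec4a3 (0.93), C3ar1 most like Abcb4 (0.96), Psap (0.93) and Ttc13 (0.92), and Cfb most like Orm1, an acute-phase protein (0.97), Cib2 (0.96) and Ipo13 (0.95). These r values rest on the spread within groups of the same 14 libraries, in which single libraries such as control replicates 1 and 4 can weigh heavily. They are descriptions. With Spearman's rank correlation, most of the 3 genes were kept for C1q, 1 for C3 and 0 for C3ar1 and Cfb.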

How the data were processed

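QuantSeq libraries of eWAT from 9 control and 5 WD mice were grouped by the labels' diet, batch and replicate number. The authors aligned single-end reads with Bowtie2 to mm10 and counted unique and multiple alignments per gene with bedtools; versions are not given in the sources used here. The deposited counts are not normalized. The deposited log2 values are the authors' TMM-normalized CPM plus 1; recomputed values differed from them by at most 0.026 for the 9 genes. Every per-sample column matched a sample. Gene positions overlapped GENCODE M21 (GRCm38) for 22093 of 22197 symbols (99.5%).

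Counts were tested with the edgeR 4.0.16 quasi-likelihood test (TMM, filterByExpr, no covariates, FDR threshold 0.05 by Benjamini-Hochberg over all genes tested) in R 4.3.3. DESeq2 1.42.0, limma-voom (limma 3.58.1), other size factors, other filters and leaving out each library were the alternatives. Values and plots used Python 3.11.15, pandas 2.3.3 and matplotlib 3.10.9. Scripts were tested on simulated counts in which 200 genes had a log2 change of 2, up or down. With the groups of batch 1, edgeR recovered 6 of the 200 in 8 calls. DESeq2 recovered 49 there, and 36 of its 85 calls were wrong. Against the batch 2 controls, edgeR recovered 96 in 100 calls. Having 0 calls in batch 1 therefore does not show that a gene was unchanged. CPM values are on 1 TMM scale over 14 libraries, log2(CPM + 1) uses a pseudocount of 1, and 3 counts were taken as the floor. No molecular identifiers are mentioned, so depth covers counting error only. P-values measure the spread between these libraries. An order of group means was called beyond the spread where the gap in log2(CPM + 1) exceeded the larger SD.

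The members and lists were chosen with earlier results of these data known. By rule, all members were named, other complement genes where they had an FDR under 0.05 against the batch 2 controls or an unadjusted p under 0.05 in batch 1, up to 8 per comparison, and the 3 genes most like C1q, C3, C3ar1 and Cfb.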

Additional observations from a re-analysis of the deposited data

Results flagged for a closer look

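Among 27 groups (9 genes in 3 groups) examined for a library far from the others, 1 was picked out, and chance gives about 1.35. It was Cfb in control replicate 6, at 7.33 log2(CPM + 1), against 7.77 to 7.90 in the other batch 2 controls. Groups of 4 and 5 libraries were examined with Dixon's ratio.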

How the results depend on the processing

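In batch 1, the count of members with an FDR under 0.05 was 0 in edgeR, 1 with DESeq2, 0 to 1 with a library left out and 1 with control replicates 1 and 4 both left out, an alternative chosen after seeing the data. For the other complement genes these counts were 0, 1, 0 to 1 and 3. With all 9 controls, 2 members were called, against 4 when each library had to reach 1 CPM, 5 with DESeq2, 4 with limma-voom, 2 to 6 with a library left out and 7 without control replicates 1 and 4. Against the batch 2 controls the count was 5 to 8 under all alternatives. Calls over all genes under the alternatives to these 2 comparisons are not given here, so the counts do not single out the complement genes. Reversed values were C3ar1 between the control batches, -1.96 to 0.31 with a library left out (0.31 without control replicate 4) and 0.01 without replicates 1 and 4, and C2 with all 9 controls, 1.08 under limma-voom. The cause was not tested.

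Replicate numbers do not pair the libraries, which come from different mice. Same-numbered libraries of batch 1 had correlations of -0.015, 0.044, 0.055 and 0.078, within the -0.088 to 0.118 of differently numbered ones. With the replicate block, 0 members were called, as with all 14 libraries and batch as a covariate. Over all genes in batch 1, edgeR called 0 without control replicate 1, 48 without control replicate 4 and 108 without both.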

Other observations

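Several genes of the lectin and terminal pathways, whose plasma proteins are mostly made by the liver, had 0 counts in most libraries, among them Mbl1, Masp2 and C8b, whereas Fcna, Colec12, C6, C7 and C8g had counts in at least 11 of the 14. Cd46, a regulator, and Colec10, Masp1 and Fcnb had 0 counts in all 14 libraries. Mbl2 had 108 counts in control replicate 2 of batch 1 and 0 in the other 13 libraries, and Hc, which encodes C5, had 126 counts there and at most 16 in any other library. The highest count of C9, 34, was in that library too. It held 747 CPM of 5 hepatocyte markers, against 7.33 to 126 CPM in the other libraries, and the part of this in those counts was not tested. These genes were named after their values were seen.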
